A study of Homo sapiens with 90 samples.

Results

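The keratin genes were taken from the array table as every probe whose gene symbol is KRT followed by a number, with pseudogenes and keratin-associated proteins left out, and the probe with the highest mean over the 90 arrays stood for each gene. Probes were found for 49 keratin genes of the 20036 genes with a probe of their own. Of these, 18 had a mean log2 signal of at least 4.236, the median of all probe means, and entered the comparisons together with 12717 other genes, which made 12735 in all. The other 31 keratins lay under this filter, the nearest of them being KRT73 at 4.22 and KRT75 at 4.18, while KRT31 at 4.29 and KRT83 at 4.34 were the nearest above it. No probe was paired with KRT6A, KRT6B, KRT17, KRT81, KRT82 or KRT86 in the annotation used, and these genes were not analysed here.

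The samples were total RNA of BxPC-3 cells, an established human pancreatic adenocarcinoma line, hybridised to Illumina HumanHT-12 v4 BeadChips. All cells were grown in DMEM with 2% FBS and had been starved in 0.2% FBS for 24 h before time 0. In 1 arm cetuximab, which binds the EGF receptor (EGFR) and keeps its ligands off, was then present at 10 µg/ml from time 0, and the other arm was an untreated negative control. Each arm was sampled at 15 times, which were time 0, then 5, 10 and 30 min, 1, 2, 4 and 8 h, and each of days 1 to 7, with 3 arrays per arm and time. The labels do not say whether the 3 arrays of a group came from separate cultures, so the spread between them may be technical. All cells belong to 1 line, and no other line was sampled.

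Keratins are the intermediate filament proteins of epithelial cells, and a filament is built from pairs of a type I and a type II keratin. Simple epithelia, such as the pancreatic ducts, use KRT8 with KRT18 and often KRT7 and KRT19. Stratified epithelia use KRT5 and KRT14 in the basal layer and others above it, among them KRT4 and KRT13 in the mucosa of the mouth and oesophagus and KRT10 in the epidermis. KRT6A, KRT6B, KRT16 and KRT17 are known as stress keratins because wounded or hyperproliferative skin makes them. EGFR signalling is known to act on keratin genes in keratinocytes.

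Of the 18 keratins over the filter, 4 were simple (KRT7, KRT8, KRT18 and KRT19), 3 basal (KRT5, KRT14 and KRT15), 1 a stress keratin (KRT16), 4 suprabasal (KRT4, KRT9, KRT10 and KRT13) and 3 hair keratins (KRT31, KRT36 and KRT83), with KRT23, KRT24 and KRT80 outside these classes. The level of a probe depends on its sequence, so levels are compared here only within a gene. KRT19, KRT13, KRT7, KRT5 and KRT16 had means over 90 arrays of 12.02, 11.84, 10.52, 10.33 and 10.27 on the log2 scale. KRT8, KRT4, KRT10, KRT80 and KRT18 followed at 9.98, 8.40, 8.23, 7.30 and 7.00, and KRT15 and KRT14 at 6.58 and 5.29. KRT23, KRT24, KRT36 and KRT9, at 4.94, 4.59, 4.57 and 4.35, were dim. Near-identical stretches shared by KRT14, KRT16 and KRT17 and by the KRT6 genes can let a probe of 1 bind RNA of another, and probe sequences were not used here.

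As means of 3 arrays over the 15 times, the simple keratins covered these ranges. KRT19 went from 11.73 to 12.35 in controls and from 11.68 to 12.26 with cetuximab. KRT7 went from 9.28 to 11.12 in controls and from 9.34 to 11.02 with cetuximab. KRT8 went from 9.75 to 10.41 in controls and from 9.52 to 10.46 with cetuximab. KRT18 lay between 6.66 and 7.32 in controls and between 6.54 and 7.38 with cetuximab. KRT7 had the widest range of these. In the basal class, KRT5 went from 9.83 to 10.99 in controls and from 9.73 to 10.95 with cetuximab. The range of KRT14 was 3.96 to 6.45 in controls and 3.94 to 6.56 with cetuximab. The range of KRT15 was 5.63 to 7.30 in controls and 5.62 to 7.29 with cetuximab. KRT14 had the widest range of these 3 in both arms. The stress keratin KRT16 went from 9.17 to 10.78 in controls and from 9.55 to 10.84 with cetuximab, the low end being day 1 in both arms. KRT4, a suprabasal keratin, went from 7.17 to 10.07 in controls and from 7.22 to 10.34 with cetuximab, the widest range of the 18. For KRT13 the range was 11.12 to 12.43 in controls and 11.14 to 12.43 with cetuximab, and for KRT10 it was 7.84 to 8.64 in controls and 7.88 to 8.56 with cetuximab. KRT80 covered 6.53 to 7.64 in controls and 6.78 to 7.74 with cetuximab, and KRT23 4.42 to 5.91 in controls and 4.16 to 5.64 with cetuximab. The remaining keratins lay near the filter. KRT24 lay at 4.44 to 4.72 in controls and 4.26 to 4.87 with cetuximab, and KRT36, a hair keratin, at 4.22 to 4.97 in controls and 4.05 to 4.86 with cetuximab. KRT9, of palms and soles, lay at 4.17 to 4.56 in controls and 4.17 to 4.62 with cetuximab. The hair keratins KRT83 and KRT31 lay at 4.235 to 4.49 in controls and 4.21 to 4.42 with cetuximab, and at 4.05 to 4.45 in controls and 4.13 to 4.45 with cetuximab, in that order.

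Replicate arrays correlated at 0.978 to 0.989, and the arrays' medians lay between 4.29 and 4.36. The ductal epithelial markers EPCAM and CDH1 had means of 10.19 and 9.87, and 6 of 7 ductal markers with a probe were over the filter. Of these markers, CFTR lay barely over the filter at 4.27, and CA2 lay under it at 4.18. None of 5 acinar markers with a probe was over it. Of 6 leukocyte markers, PTPRC, CD3E and ITGAM lay under it, and CD68, HLA-DRA and CD14 over it at means of 7.61, 6.15 and 5.56. The fibroblast markers COL1A1, COL1A2, DCN and LUM lay barely over it, at 4.26 to 4.50. The mean level of the fibroblast list ran from 4.00 to 4.37 over control arrays and from 3.99 to 4.42 over cetuximab arrays, and the mean level of the leukocyte list from 5.11 to 5.435 and from 5.12 to 5.45. Over days 1 to 7 the fibroblast marker LUM was higher with cetuximab by 0.24 ± 0.06 (adjusted p = 0.0031) and the ductal marker MUC1 by 0.30 ± 0.03 (adjusted p = 8.19e-12), while CD68 was lower by 0.21 ± 0.05 (adjusted p = 0.0021) and the ductal marker SOX9 by 0.27 ± 0.04 (adjusted p = 2.32e-06). At time 0 SOX9 was already 0.38 ± 0.12 lower in the cetuximab group (adjusted p = 0.060), and CDH1 was called lower by 0.34 ± 0.10 (adjusted p = 0.041). LUM, MUC1 and CD68 differed by -0.22, -0.20 and 0.11 at time 0 and were not called. The part of these markers in the keratin results was not tested. In bulk RNA, fewer cells that express a gene and less RNA per cell cannot be told apart.

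The course of the untreated cells asked how keratins changed with time alone. In the control arm, 13 of the 18 keratins differed between days 1 to 7 and time 0 at an adjusted p under 0.05 (limma, Benjamini-Hochberg over all genes), 7 higher and 6 lower, beside 46.1% of all genes tested. KRT4 rose by 1.88 ± 0.08 (SE) on the log2 scale, 3.67-fold, while KRT7 fell by 1.04 ± 0.06, which is 2.06-fold. Time since starvation and time in culture cannot be told apart in this arm. Between time 0 and 8 h, 8 keratins differed, 1 higher and 7 lower, beside 35.0% of all genes, and between 8 h and day 1 it was 7 keratins, 4 higher and 3 lower, beside 33.7%. Over the 7 days, 9 keratins had a slope in controls, beside 48.9%, and 10 had one with cetuximab, beside 49.7%.

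**Figure D1:**
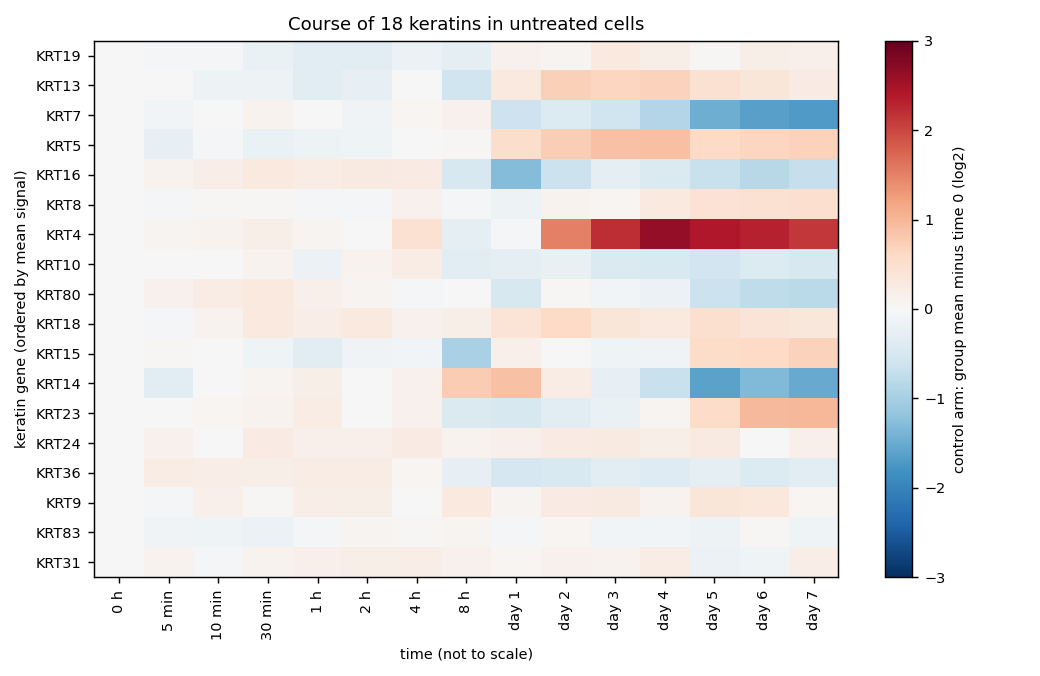
Mean log2 signal of 18 keratins in the control arm at each of 15 times minus the mean at time 0, 3 arrays per time, with red above and blue below time 0 and the time axis not to scale. KRT4 was 2.63 over its time 0 mean on day 4, and KRT7 and KRT14 lay under theirs on days 4 to 7.

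The simple keratins did not move as a class in controls. KRT7 read 10.94, 11.01 and 11.02 on the time 0 arrays and 9.36, 9.29 and 9.21 on those of day 7, and its lowest array up to 8 h, at 10.85, lay over its highest array on the days, at 10.64. Its slope over the days was -0.23 ± 0.01 per day in controls (adjusted p = 4.43e-29) and -0.25 ± 0.01 per day with cetuximab (adjusted p = 1.97e-30). KRT8, the type II partner of KRT18, rose by 0.24 ± 0.10 (adjusted p = 0.033) and had a slope of 0.11 ± 0.02 per day. KRT18 rose by 0.41 ± 0.10 (adjusted p = 0.00054), but its second probe, with a mean of 5.03, differed by 0.01 ± 0.09 (adjusted p = 0.93). KRT19, a type I keratin of ducts, fell by 0.28 by 8 h and rose by 0.41 from 8 h to day 1, and over the days it was 0.15 ± 0.07 above time 0 (adjusted p = 0.084).

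Among the basal keratins, KRT5 rose by 0.71 ± 0.08 (adjusted p = 2.86e-12) while KRT14, the type I partner with which it forms filaments in basal cells, fell by 0.60 ± 0.09 (adjusted p = 3.77e-08). KRT14 did not fall steadily. It read 5.63, 5.37 and 5.69 at time 0, 6.33, 6.36 and 6.29 at 8 h and 6.46, 6.50 and 6.39 on day 1, and then 4.09, 3.95 and 4.13 on day 7, under the filter. KRT15, another type I keratin of basal cells, read 6.77, 6.61 and 6.40 at time 0, 5.49, 5.55 and 5.84 at 8 h and 6.62, 6.70 and 6.92 on day 1. The 8 h arrays lay under all others of the controls, with a fall of 0.97 ± 0.12 from time 0 (adjusted p = 4.47e-10) and a rise of 1.12 ± 0.12 to day 1 (adjusted p = 3.40e-12). By day 7 KRT15 read 7.34, 7.32 and 7.23.

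KRT16, the stress keratin, fell by 0.70 ± 0.11 over the days (adjusted p = 6.74e-08). It read 10.44, 10.65 and 10.33 at time 0, 9.99, 10.23 and 9.77 at 8 h and 9.26, 9.27 and 8.98 on day 1, its lowest time, and 10.27, 10.33 and 9.93 on day 3. The second KRT16 probe, at a mean of 4.39, also fell between time 0 and the days, by 0.35 ± 0.10 (adjusted p = 0.0025). It did not show the fall from 8 h to day 1, with -0.01 ± 0.13 (adjusted p = 0.96) against -0.83 ± 0.14 for the brighter probe. Its difference between time 0 and 8 h, -0.27 ± 0.13, was not called (adjusted p = 0.10).

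The mucosal keratins KRT4 and KRT13, which pair with each other above the basal layer, both rose over the days. KRT4 read 7.35, 7.48 and 7.50 at time 0 and 7.24, 7.52 and 7.45 on day 1, which overlapped. It then read 8.79, 9.15 and 8.94 on day 2, 10.04, 10.02 and 10.16 on day 4 and 9.57, 9.48 and 9.62 on day 7, all above time 0. KRT13 fell by 0.59 ± 0.07 by 8 h (adjusted p = 3.92e-10), rose by 0.89 ± 0.07 from there to day 1 (adjusted p = 1.31e-16) and was 0.49 ± 0.06 over time 0 across the days. KRT10 fell by 0.41 ± 0.09 over the days (adjusted p = 0.00012). KRT80, a type II keratin, fell by 0.42 ± 0.06 (adjusted p = 9.25e-09), KRT36 by 0.38 ± 0.13 (adjusted p = 0.0099), and KRT23, a type I keratin, rose by 0.23 ± 0.10 (adjusted p = 0.048). KRT23 had a slope of 0.28 ± 0.02 per day, and its control arrays went from 4.38, 4.40 and 4.50 on day 1 to 6.06, 5.90 and 5.77 on day 7.

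Across the 30 group means of both arms, which share their time course, KRT8 and KRT18 correlated at r = 0.51, while KRT7 ran opposite to KRT19 at -0.59 and KRT5 to KRT14 at -0.41. Within groups, over the deviations of the 90 arrays from their group means, the same pairs correlated at 0.06, 0.60 and 0.23. Of all pairs among the 18, named after their values were seen, KRT4 and KRT5 were the most alike at r = 0.88 and KRT5 and KRT10 the most opposed at -0.86. KRT4 and KRT13, partners in mucosa, correlated at 0.83. The points share arrays and times, and the values are a description.

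The 250 bases before the start of KRT4, KRT5 and KRT10 are printed because these genes had the most alike and the most opposed courses. They are given 5′ to 3′ on the strand of the gene, from RefSeq on GRCh38.p14, with the motifs searched for in capitals. All 3 genes lie on the minus strand, KRT4 at chr12:52806549-52814116 with its window at chr12:52814117-52814366, KRT5 at chr12:52514575-52520394 with its window at chr12:52520395-52520644, and KRT10 at chr17:40818117-40822614 with its window at chr17:40822615-40822864.
KRT4: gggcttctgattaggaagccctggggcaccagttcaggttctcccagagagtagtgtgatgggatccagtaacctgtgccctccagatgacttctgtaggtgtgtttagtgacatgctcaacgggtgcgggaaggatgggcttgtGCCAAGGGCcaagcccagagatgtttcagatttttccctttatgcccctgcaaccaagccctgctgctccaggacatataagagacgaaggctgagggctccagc
KRT5: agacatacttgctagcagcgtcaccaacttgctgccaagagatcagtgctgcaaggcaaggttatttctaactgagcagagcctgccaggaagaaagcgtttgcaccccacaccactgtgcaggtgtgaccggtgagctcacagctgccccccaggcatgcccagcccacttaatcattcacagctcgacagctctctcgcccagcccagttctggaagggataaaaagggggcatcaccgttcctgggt
KRT10: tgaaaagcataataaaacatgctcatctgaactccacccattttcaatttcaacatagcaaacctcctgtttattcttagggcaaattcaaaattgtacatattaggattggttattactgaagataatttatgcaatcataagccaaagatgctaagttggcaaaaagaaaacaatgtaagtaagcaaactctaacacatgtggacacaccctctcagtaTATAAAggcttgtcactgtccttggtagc
The letters searched, on both strands and with overlaps allowed, were TGANTCA for AP-1, GGGCGG for the Sp1 box, GCCNNNGGC for AP-2 and TATAAA for the TATA box. The window of KRT4 held 1 AP-2 match, starting 105 bases before the gene, that of KRT10 held 1 TATA box, starting 29 bases before it, and that of KRT5 held none of these letters. Over 35116 promoters of the same length, 6.57% held the AP-1 letters, 42.6% the Sp1 box, 19.8% the AP-2 letters and 10.7% the TATA box. Sequences were at hand for 33 of the 49 measured keratins, 8 of them over the filter. Of the 33, none held the AP-1 letters, 4 the Sp1 box, 5 the AP-2 letters and 20 the TATA box. Among the 8 over the filter, only KRT10, KRT24 and KRT31 held the TATA box, KRT4 and KRT9 the AP-2 letters and KRT9 the Sp1 box. The other matches were in keratins under the filter. A match of letters is a description and not a binding site.

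**Figure D2:**
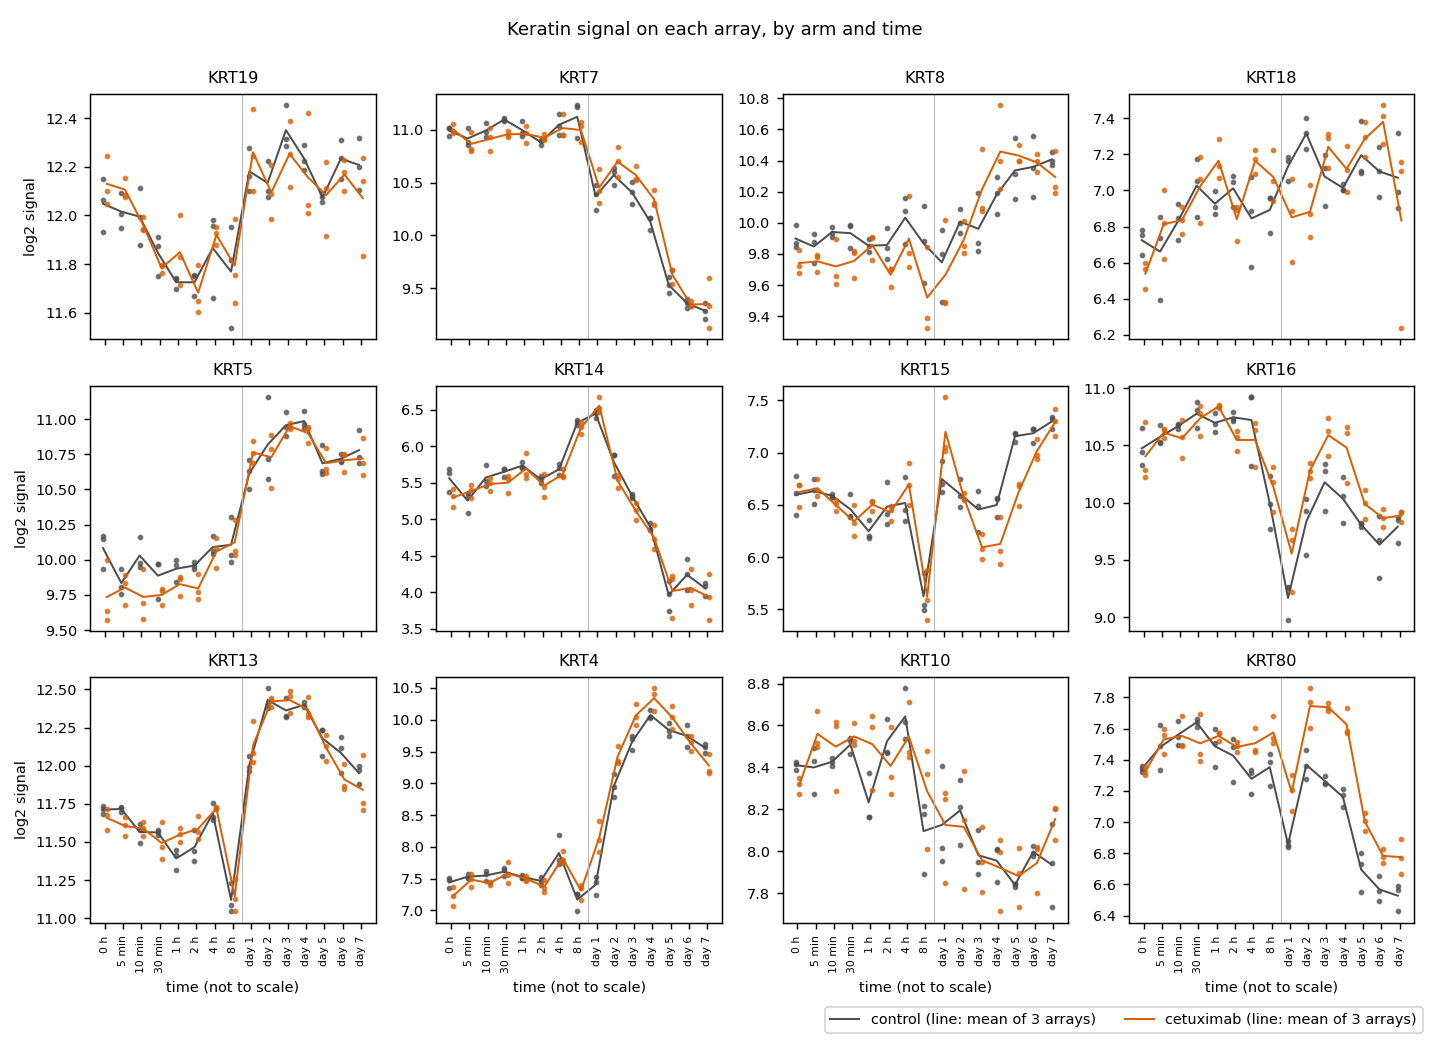
Log2 signal of 12 keratins on each of 90 arrays (points) and the mean of the 3 arrays (lines) in the control arm (grey) and the cetuximab arm (orange) at 15 times, with the time axis not to scale and a vertical line between 8 h and day 1. On each of days 1 to 7 the KRT80 points with cetuximab lie above those of the controls, and the fall of KRT14 after day 1 is seen in both arms.

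At time 0, the start of cetuximab treatment, no keratin was called by limma, beside 2.48% of all genes, and 2 of 18 had an unadjusted p under 0.05. KRT5 read 9.93, 10.15 and 10.17 in the control group and 9.57, 9.64 and 10.00 in the cetuximab group. The groups overlapped, and the difference of -0.35 ± 0.10 had an adjusted p of 0.0504. This lies on the threshold, and under 8 of the alternative settings and without either of 2 single arrays it was called. KRT14 was 0.26 ± 0.12 lower (adjusted p = 0.28).

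From 5 min to 8 h, the question was whether keratins differed between the arms in the first hours. None was called at any of these 7 times taken singly, beside 0.00785% and again 0.00785% of all genes at 5 and 10 min, 0.126% at 30 min, and 0.306%, 0.408%, 1.71% and 0.503% at 1, 2, 4 and 8 h. In that order of times 0, 1, 0, 3, 0, 3 and 3 keratins had an unadjusted p under 0.05. Over the 7 times together, 1 of 18 keratins was called, beside 10.1% of all genes. KRT8 was lower with cetuximab by 0.17 ± 0.05 (adjusted p = 0.016). Its 21 control arrays ran from 9.61 through a median of 9.90 to 10.16 and its 21 cetuximab arrays from 9.32 through 9.76 to 10.17, so the arms overlapped widely. KRT8 was already 0.16 ± 0.13 lower at time 0, and relative to that difference the early value was -0.01 (adjusted p = 0.99). Leaving out replicate number 1 or 2 or the 8 h arrays also ended the call.

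Over days 1 to 7, 6 of 18 keratins differed between the arms, beside 13.3% of all genes. KRT80, KRT16, KRT4 and KRT7 were higher with cetuximab and KRT23 and KRT15 lower. The simple keratins had 1 of 4 higher and a median difference of 0.0019, the basal keratins 1 of 3 lower and a median of -0.10, and the suprabasal keratins 1 of 4 higher and a median of -0.0043, beside a median of 0.0032 over all genes. None of the 3 hair keratins was called. Taken relative to the difference at time 0, which rests on 3 arrays per arm, 2 of the 6 were called, KRT4 and KRT80.

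**Figure D3:**
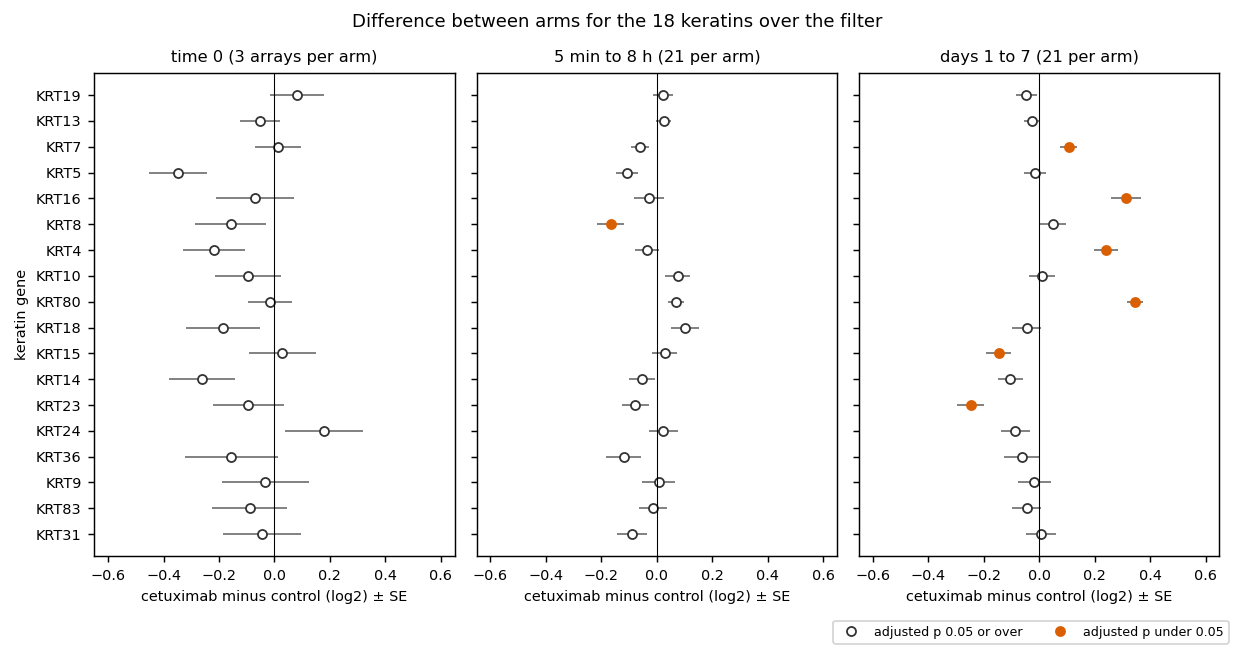
Cetuximab minus control on the log2 scale, with bars of 1 SE, for 18 keratins at time 0, over the 7 times from 5 min to 8 h and over days 1 to 7, with filled orange points at an adjusted p under 0.05. The filled points are KRT8 in the hours and KRT7, KRT16, KRT4, KRT80, KRT15 and KRT23 in the days.

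KRT80, which many kinds of epithelia make, was higher with cetuximab over the days. Its 21 control arrays of days 1 to 7 ran from 6.43 through a median of 6.85 to 7.46 and its 21 cetuximab arrays from 6.67 through 7.20 to 7.86. On each of the 7 days the 3 cetuximab arrays all lay above the 3 control arrays, which held for 0.346% of all genes in 1 direction or the other. The difference was 0.35 ± 0.03 or 1.27-fold (adjusted p = 2.57e-15). At 4 and 8 h it was already 0.23 ± 0.08 and 0.22 ± 0.08, without overlap of the arms. Neither of these was called (adjusted p = 0.14 and 0.24). On day 3 the control arrays read 7.30, 7.25 and 7.25 and the cetuximab arrays 7.76, 7.71 and 7.73, and this was the day with the widest gap, 0.47 ± 0.08. KRT80 fell over the days in both arms, with slopes of -0.11 ± 0.01 and -0.14 ± 0.01 per day. Its second probe, at a mean of 5.06, was higher over the days by 0.14 ± 0.04 (adjusted p = 0.024), but was called on no single day. On day 6 this probe differed by -0.18 ± 0.12 (adjusted p = 0.74). Its change between the hours and the days was 0.12 ± 0.06 and was not called (adjusted p = 0.27).

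KRT16 was higher with cetuximab by 0.31 ± 0.05 or 1.24-fold (adjusted p = 5.21e-06), and its mean was higher on 7 of 7 days. The control arrays ran from 8.98 through 9.82 to 10.33 and the cetuximab arrays from 9.22 through 10.00 to 10.74. On day 2 the control arrays read 9.93, 10.03 and 9.54 and the cetuximab arrays 10.21, 10.35 and 10.28, and the arms stood apart on days 2, 3 and 5. No single day was called, the lowest adjusted p being 0.067 on day 4. The second KRT16 probe, dim at a mean of 4.39, did not follow, with -0.10 ± 0.05 over the days (adjusted p = 0.23) and a lower value on day 3 (-0.46 ± 0.13, adjusted p = 0.036). With the mean of both probes in place of the brighter one, the difference of KRT16 between the days and the hours was 0.11 (adjusted p = 0.15) against 0.34 with the brighter probe alone.

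KRT4 was higher by 0.24 ± 0.04 over the days (adjusted p = 8.81e-06), and the difference went from positive to negative. On day 1 the control arrays read 7.24, 7.52 and 7.45 and the cetuximab arrays 7.91, 8.11 and 8.41, with no overlap and a difference of 0.74 ± 0.11 or 1.67-fold (adjusted p = 4.10e-06). It was 0.46 on day 2 (adjusted p = 0.010), 0.41 on day 3 (adjusted p = 0.022), 0.27 on day 4, 0.20 on day 5, -0.11 on day 6 and -0.28 on day 7 (adjusted p = 0.31). On day 7 the control arrays read 9.57, 9.48 and 9.62 and the cetuximab arrays 9.47, 9.17 and 9.20, again with no overlap and now with cetuximab below. The negative differences of days 6 and 7 were not called, and KRT4 differed by -0.22 ± 0.11 at time 0 (adjusted p = 0.36). The slope of the difference was -0.16 ± 0.02 per day (adjusted p = 3.19e-07), and KRT4 was the only keratin called for it, beside 1.34% of all genes. Both arms rose to day 4, the controls to 10.07 and the cetuximab arm to 10.34.

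KRT7 was higher by 0.11 ± 0.03 (adjusted p = 0.014). Its control arrays ran from 9.21 through 10.16 to 10.64 and its cetuximab arrays from 9.12 through 10.31 to 10.84. On day 4 the control arrays read 10.17, 10.05 and 10.16 and the cetuximab arrays 10.28, 10.31 and 10.43, and the arms also stood apart on day 3. This 1.08-fold difference was small beside the fall of KRT7 over the days in both arms, and it was not called without replicate number 1, 2 or 3 (adjusted p = 0.071, 0.070 and 0.17) or without day 3 or day 4.

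KRT15 was lower over the days by 0.15 ± 0.05 (adjusted p = 0.020), with opposite differences on different days. On day 1 the control arrays read 6.62, 6.70 and 6.92 and the cetuximab arrays 7.02, 7.05 and 7.53, a difference of 0.45 ± 0.12 (adjusted p = 0.029). On day 5 the control arrays read 7.10, 7.19 and 7.18 and the cetuximab arrays 6.69, 6.70 and 6.49, a difference of -0.53 ± 0.12 (adjusted p = 0.0058). The arms did not overlap on either day. On day 7 KRT15 read 7.34, 7.32 and 7.23 in controls and 7.42, 7.31 and 7.16 with cetuximab, which overlapped. The call over the days was lost without replicate number 1 or 2 and without day 3, 4 or 5. That of day 1 was lost without the cetuximab array with replicate number 3 (0.29, adjusted p = 0.35).

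KRT23 was lower by 0.25 ± 0.05 (adjusted p = 8.17e-05), its mean being lower on 6 of 7 days. At 4 and 8 h it already differed by -0.30 ± 0.13 and -0.31 ± 0.13, without overlap of the arms. Neither of these was called (adjusted p = 0.29 and 0.37). On day 6 the control arrays read 5.78, 5.95 and 5.89 and the cetuximab arrays 5.47, 5.43 and 5.32, without overlap (-0.47 ± 0.13, adjusted p = 0.062). The control arrays of the days ran from 4.38 through 4.93 to 6.06 and the cetuximab arrays from 4.09 through 4.85 to 5.85. Without replicate number 2 the difference was -0.16 (adjusted p = 0.12). KRT80, KRT16, KRT4 and KRT23 stood apart between the arms in 1 direction on 3 or more days, 4 of 18 keratins beside 8.35% of all genes.

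The other keratins had no called difference over the days. For the pairs of simple and basal cells, KRT8 differed by 0.05 ± 0.05, KRT18 by -0.05 ± 0.05, KRT19 by -0.05 ± 0.04, KRT5 by -0.02 ± 0.04 and KRT14 by -0.10 ± 0.05 (adjusted p = 0.12), and KRT14 was called without day 1 (-0.14, adjusted p = 0.046). KRT13, which moved by over 1 unit in both arms with time, differed by -0.03 ± 0.03 and KRT10 by 0.01 ± 0.05. KRT18 read 7.32, 7.40 and 7.23 in controls and 6.87, 7.03 and 6.74 with cetuximab on day 2, without overlap, but the difference of -0.43 ± 0.13 was not called (adjusted p = 0.079). The second KRT18 probe did not follow on day 2, with 0.12 ± 0.12 (adjusted p = 0.80). On day 7 a single cetuximab array of KRT18 read 6.24 beside 7.11 and 7.16.

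Day by day, 3 keratins were called on day 1, namely KRT4, KRT80 and KRT15, all higher, beside 1.41% of all genes. KRT4 and KRT80 were called higher on day 2 beside 1.88% and on day 3 beside 2.47%, and KRT80 on day 4 beside 2.96%. On day 5 KRT80 was called higher and KRT15 lower beside 1.11%, while none was called on day 6, beside 0.722%, or day 7, beside 1.33%, where 4 keratins each had an unadjusted p under 0.05. These 10 calls fell to 1, KRT80 on day 3, when only the 6 arrays of the groups compared entered each fit.

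**Figure D4:**
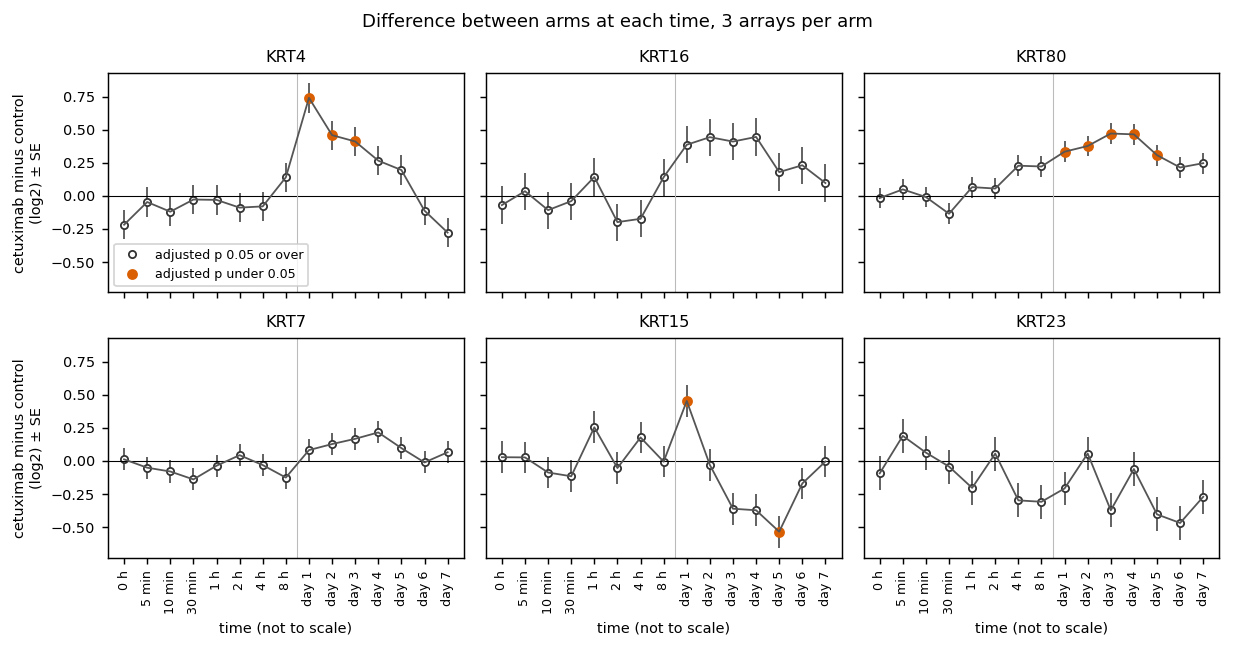
Cetuximab minus control on the log2 scale, with bars of 1 SE, at each of 15 times (axis not to scale) for the 6 keratins called over days 1 to 7, 3 arrays per arm, with filled orange points at an adjusted p under 0.05. KRT4 went from 0.74 on day 1 to -0.28 on day 7, KRT15 from 0.45 to -0.53 on day 5, and KRT80 lay between 0.21 and 0.47 on days 1 to 7.

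The difference between the arms was itself compared between the days and the hours, without the time 0 arrays. A difference between the arms that is equal in hours and days cancels in this comparison. As a signed value, cetuximab minus control, it was higher on the days than in the hours for 5 of 18 keratins and lower for none, beside 6.99% of all genes called in either direction. KRT8 went from -0.17 in the hours to 0.05 on the days. KRT80 went from 0.07 to 0.35, and its value in the hours averages 4 and 8 h, at 0.23 and 0.22, with earlier times. The change was 0.34 ± 0.08 for KRT16 (adjusted p = 0.0011), 0.28 ± 0.06 for KRT4 (adjusted p = 0.00075), 0.28 ± 0.04 for KRT80 (adjusted p = 1.08e-06), 0.22 ± 0.07 for KRT8 (adjusted p = 0.040) and 0.17 ± 0.04 for KRT7 (adjusted p = 0.00995). For KRT15 it was -0.17 ± 0.06 (adjusted p = 0.091) and for KRT23 -0.17 ± 0.07 (adjusted p = 0.14).

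The 31 keratins under the filter were tested in a fit without it, over 20036 genes. Over the days, 2 of the 31 were called, beside 7.3% of all genes in this fit, KRT75 at 0.16 ± 0.05 (adjusted p = 0.045) and KRT2 at -0.25 ± 0.07 (adjusted p = 0.013). In controls, between the days and time 0, KRT27 alone of the 31 was called, beside 28.1% of all genes, at 0.44 ± 0.13 (adjusted p = 0.0045). Their means were 4.18, 3.86 and 4.03, within the range of dim probes. KRT20, a simple keratin of gut, and KRT6C, a stress keratin, had means of 4.09 and 3.93.

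The proteins that tie keratin filaments to desmosomes or organise them were compared as a list, of which 14 of 17 genes were over the filter. Over the days 6 were lower with cetuximab and none higher, with a median of -0.093, beside 13.3% of all genes called in either direction and a median over all genes of 0.0032. Over the hours 9 were lower and none higher, with a median of -0.15, beside 10.1% and -0.00038. In controls, 9 were lower on the days than at time 0 and none higher, with a median of -0.43, beside 46.1% and 0.0086 over all genes. SFN, a 14-3-3 protein that binds keratins, was lower over the days by 0.24 ± 0.03 (adjusted p = 1.00e-08) and PKP3, a desmosomal plakophilin, by 0.24 ± 0.05 (adjusted p = 0.00030). FAM83H, which organises keratin filaments, was lower by 0.18 ± 0.04 (adjusted p = 0.00088), and PKP1, another plakophilin, by 0.14 ± 0.04 (adjusted p = 0.0051). At time 0 FAM83H already differed by -0.29 ± 0.11 and PKP1 by -0.17 ± 0.10, both more than over the days. SFN differed by -0.13 ± 0.09 and PKP3 by 0.07 ± 0.13 at time 0, and none of these time 0 differences was called. At time 0 the list had a median of -0.11, beside 0.010 over all genes. There 1 gene was called lower, DSP by 0.57 ± 0.13 (adjusted p = 0.0043), beside 2.48% of all genes. The difference of the list over the days relative to that at time 0 was not tested.

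Of 9 other intermediate filament genes over the filter, VIM, the filament protein of mesenchymal cells, was higher over the days by 0.12 ± 0.04 (adjusted p = 0.025) and LMNA, a nuclear lamin, lower by 0.13 ± 0.03 (adjusted p = 0.00052). At time 0 LMNA was already lower in the cetuximab group, by 0.41 ± 0.08 (adjusted p = 0.00035), and VIM differed by -0.27 ± 0.10 (adjusted p = 0.15). These 2 of 9 calls over the days stood beside 13.3% of all genes, and the median of the 9 was 0.0080. In controls 5 of the 9 rose over time and 2 fell, beside 46.1% of all genes. VIM and LMNA were the ones that fell, by 0.67 ± 0.08 and 0.50 ± 0.06. Of 14 transcription factors known to act on keratin genes, OVOL2 was higher over the days by 0.10 ± 0.03 (adjusted p = 0.0081) and CEBPB lower by 0.09 ± 0.03 (adjusted p = 0.0093), and the other 12 were not called, beside 13.3% of all genes. The median of this list was -0.0062 over the days. Over the hours 3 of the 14 were higher and 1 lower, with a median of 0.031, beside 10.1% of all genes.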

How the data were processed

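RNA of 90 BxPC-3 samples was measured on 1-colour BeadChips. The deposited values are log2 signals that the authors had already normalized. The submitters' processing notes name limma without a version, the steps were not given in the sources used here, and log base 2 was inferred from the range of the values. No depth or detection value was used, and the number of arrays limits the precision.

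Groups came from the treatment and time labels. Of 47292 probes, 30096 had 1 gene symbol in the platform annotation, 8 had several and 17188 had none and were left out. Probes with a mean under 4.236 were left out and the brightest probe stood for a gene. A limma 3.58.1 model (R 4.3.3) with 1 mean per group was fitted to all 90 arrays, with 60 residual degrees of freedom, and p-values were adjusted over 12735 genes in each comparison by the Benjamini-Hochberg method, with calls at 0.05. Time 0, each time, the mean over 5 min to 8 h, the mean over days 1 to 7, their difference, and slopes over the days were compared. The fit was run on simulated data with independent noise on each array. Such data lack the deviations that same-numbered arrays share, so the run could not test their effect. Alternatives were other normalizations, filters, probe choices, weights, priors, blocks and subsets of arrays.

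All 18 keratins over the filter are named, with full statistics for those called, and up to 4 called genes of each other list with the largest difference over the days. The members and lists were chosen with earlier results of these data known. Replicate numbers were not used as pairs. Promoters came from RefSeq (GRCh38.p14) and motifs were counted with Python 3.11.15.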

Additional observations from a re-analysis of the deposited data

Results flagged for a closer look

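The difference between the arms changed between the hours (5 min to 8 h) and the days (1 to 7) for 5 keratins, by the test of that change itself. KRT16 changed by 0.34, KRT4 by 0.28, KRT80 by 0.28, KRT8 by 0.22 and KRT7 by 0.17 on the log2 scale. The second probes of KRT16 and KRT80, taken alone, changed by -0.12 and 0.12 and were not called. The difference for KRT4 also changed across the days, with a slope of -0.16 per day. Groups of 3 arrays were not tested for outlying arrays.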

How the results depend on the processing

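No called keratin result changed sign under any of these alternatives, in none of which a second probe stood alone for its gene. Taken alone, the second KRT16 probe had the opposite sign over the days (-0.10 ± 0.05, adjusted p = 0.23). The same held for its change between hours and days (-0.12 ± 0.07, adjusted p = 0.36). The count of keratins called at time 0, which was 0, became 1 (KRT5) under median centring, quantile normalization, a filter at 5, the mean of probes, array weights, the trend and robust prior and both random replicate blocks, and ran from 0 to 1 when single arrays were left out. The count over the hours, 1, became 2 with the filter at 5, with array weights, with the trend and robust prior (KRT5 added) and without 30 min (KRT80 added), and 0 relative to time 0, and ran from 0 to 1 without each replicate number. The count over the days, 6, became 2 relative to time 0 and ran from 3 to 6 without each replicate number, the lowest without number 2. The 5 keratins whose difference changed between hours and days became 2 and 3 without numbers 2 and 3, and the single trend of the difference became 2 with array weights. The 8 called in controls between time 0 and 8 h became 5 under quantile normalization and without number 1 or 2. The 10 calls at single times became 1 with only the arrays compared, which leaves fewer arrays to estimate the spread, and ran from 3 to 11 without each replicate number (3 and 6 without numbers 2 and 3). The causes of the other changes were not tested. With the replicate number as a fixed block (replicate block), the count over the days stayed at 6, that at time 0 at 0, and the single-time calls were 12, with KRT16 higher and KRT15 lower on day 4 added (adjusted p = 0.044 and 0.049). Of 43 sets of same-numbered arrays, 26 had deviations correlated over 0.1 (-0.04 to 0.57). With the number within each time as a random block (replicate block, number within time), chosen after seeing the data, KRT5 was added at time 0 (1 call) and in the hours (2 calls), the days kept a count of 6, and the single-time calls were 16, among them KRT16 on days 2 and 4 (adjusted p = 0.035 and 0.025), KRT18 on day 2 (adjusted p = 0.042) and KRT23 on day 6 (adjusted p = 0.024), none of them called without a block. The calls of KRT4 on days 2 and 3, of KRT80 on days 1 and 5 and of KRT15 on days 1 and 5 were lost on leaving out 1 array or more of those days singly, while those of KRT4 on day 1 and of KRT80 on days 2, 3 and 4 were not.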
